A study of Mus musculus with 56 samples.

Results

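Gastrocnemius, the large calf muscle, was compared at lights on (zeitgeber time 0, ZT0) between mice fed only in the light phase (daytime-restricted feeding, DRF) and mice fed only in the dark phase (nighttime-restricted feeding, NRF, the reference). The 8 libraries labelled with ZT0 were used, 4 of DRF and 4 of NRF, out of 56 in the series, which holds 14 groups of 4. All mice of both groups were female C57BL/6J, 9 weeks old at collection, under a light-dark cycle with 12 h of each. Each had 7 days of free feeding and then 7 days of its feeding regimen, and no genotype or other treatment is given for either group. At ZT0 a DRF mouse stood at the end of its fasting phase and an NRF mouse at the end of its feeding phase. The exact hours of food access are not among the labels. The labels do not say that the 4 libraries of a group came from separate mice, so the p-values measure the spread between libraries, which may in part be technical. Levels are counts per 1000000 (CPM) recovered from the deposited scores, and are compared only within a gene.

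In fasting, muscle takes less glucose and oxidises fatty acids released from adipose tissue. Fatty acids activate PPAR nuclear receptors, which raise transcription of genes for fatty acid handling, among them the kinase PDK4 that shuts pyruvate out of the mitochondrion's oxidative cycle. Insulin falls, which lets FoxO transcription factors enter the nucleus and raise genes of protein breakdown and autophagy, and the adrenal steroid corticosterone, a glucocorticoid that rises before the active and feeding phase, acts on muscle through its own receptor. After feeding, insulin drives the reverse, with SREBP factors raising genes of lipid and cholesterol synthesis. The muscle clock runs beside these signals as a loop in which BMAL1 and CLOCK raise the Per, Cry and Rev-erb genes, whose products repress that loop.

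The libraries held 28859552 to 31833817 recovered reads each, and their 10 most abundant genes took 19.5 to 26.6% of the counts. The summed level of 7 defining skeletal muscle genes was 73290 to 107800 CPM in DRF and 66150 to 87320 CPM in NRF, so the defining genes of the labelled tissue were abundant in all 8 libraries. Markers of lymphocytes and neutrophils summed to under 1 CPM in every one of the 8 libraries. The keratinocyte genes Krt1, Krt5 and Krt14 and the neutrophil gene Ly6g had fewer than 4 values above 0 in the 56 libraries, so their counts were not recovered. Summed red blood cell markers separated the groups. All 5 red blood cell genes were higher in DRF at an unadjusted p under 0.05 and none passed after adjustment (limma), and their summed level was 551 to 825 CPM in the DRF libraries and 326 to 457 CPM in the NRF libraries. Counts of 4 of these 5 genes are uncertain. Satellite cell markers, genes of the muscle's resident stem cells, summed to 41.98 to 53.85 CPM in DRF and 59.7 to 80.1 CPM in NRF. That gap rests on Myod1: without it the sums were 18.4 to 26.8 CPM in DRF and 19.1 to 27.6 CPM in NRF, which overlap. The slow fibre list, 9 genes, was spread within both groups instead, from 2233 to 5075 CPM in DRF and from 1021 to 4857 CPM in NRF, with the low value in NRF replicate 1 and the high one in DRF replicate 3. Adipocyte genes summed to 249 to 299.7 CPM in DRF and 234 to 415 CPM in NRF, and those groups overlapped. In bulk tissue fewer cells of a type and less RNA per cell cannot be told apart.

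**Figure D1:**
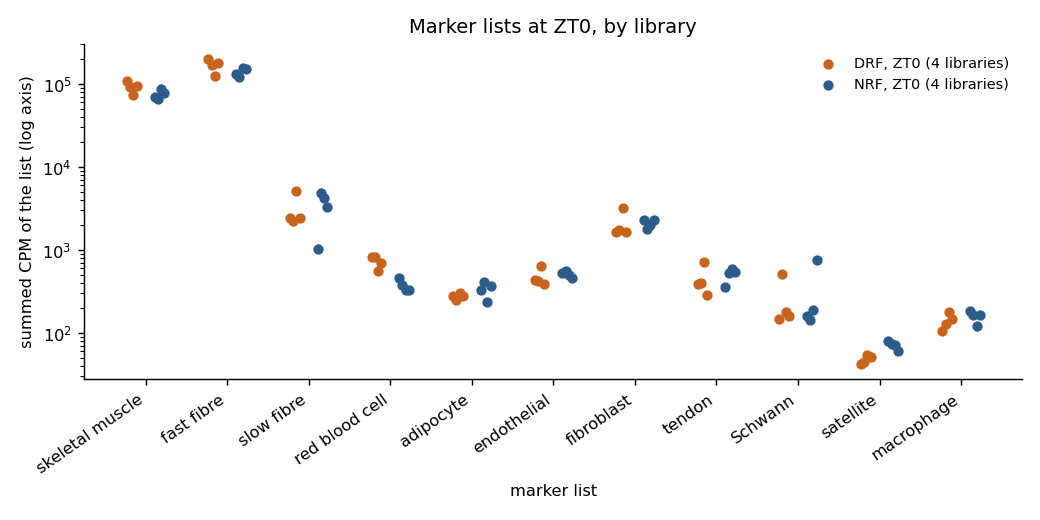
Summed CPM of 11 marker lists (log axis) in each of the 8 ZT0 libraries, DRF in orange and NRF in blue. The 4 DRF libraries lie above the 4 NRF libraries in the red blood cell list, 551 to 825 against 326 to 457 CPM, and below them in the satellite cell list, 41.98 to 53.85 against 59.7 to 80.1 CPM with Myod1 included, while the other lists overlap.

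Of 12028 genes tested, 223 differed between DRF and NRF at ZT0 (limma, Benjamini-Hochberg adjusted p under 0.05), which is 1.85% of the genes. In DRF 106 genes were higher (0.881%) and 117 were lower (0.973%). The 4 DRF values and the 4 NRF values did not overlap in 192 of the 223, against 7.98% of all genes tested (960 genes). The 223 were called from these same values, so nothing is read from that share. The rises were the larger changes: 25 of the 106 higher genes changed by 1 log2 unit or more and 7 of the 117 lower genes did. The median of the absolute log2 difference was 0.60 in the higher genes and 0.51 in the lower ones. At an unadjusted p under 0.05, 13% of the genes tested passed (679 higher and 883 lower of 12028), which is the background for the unadjusted counts of the lists. Counts that may be shared with other genes made 14 of the 223 uncertain, 13 of them among the higher genes.

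DRF replicate 1 was the most extreme DRF library, with the highest value in 58 of the 106 higher genes and the lowest in 59 of the 117 lower genes, while DRF replicate 4 had the lowest value in 60 of the higher genes. Without DRF replicate 1, 65 genes were called, 63 of them among the 223; without NRF replicate 1 the count was 142 and without NRF replicate 2 it was 120. A fit of the 8 libraries alone, which estimates the spread from 8 values a gene, called 49, and scaling by the recovered total called 49 higher and 482 lower, with the median of all genes at -0.12 log2 units. With the red blood cell score as a covariate 169 genes were called, 115 of them among the 223. None of the 223 changed direction in any of the 26 alternatives that tested it. Whether the red blood cell markers had a part in these differences was not tested beyond that covariate. Of the called genes named below, Arrdc2, Auts2, Chac1, Fbxo21, Galr2, Gpam, Igfbp5, Klhl38, Nfkbia, P4ha1, Pank1, Pdk4, Per1, Pfkfb1, Ppp1r27, Scx, Slc25a22, Slc6a6, Sult1a1 and Tob2 passed in the fit of the 8 libraries alone, and the others had adjusted p from 0.0545 to 0.25 there.

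**Figure D2:**
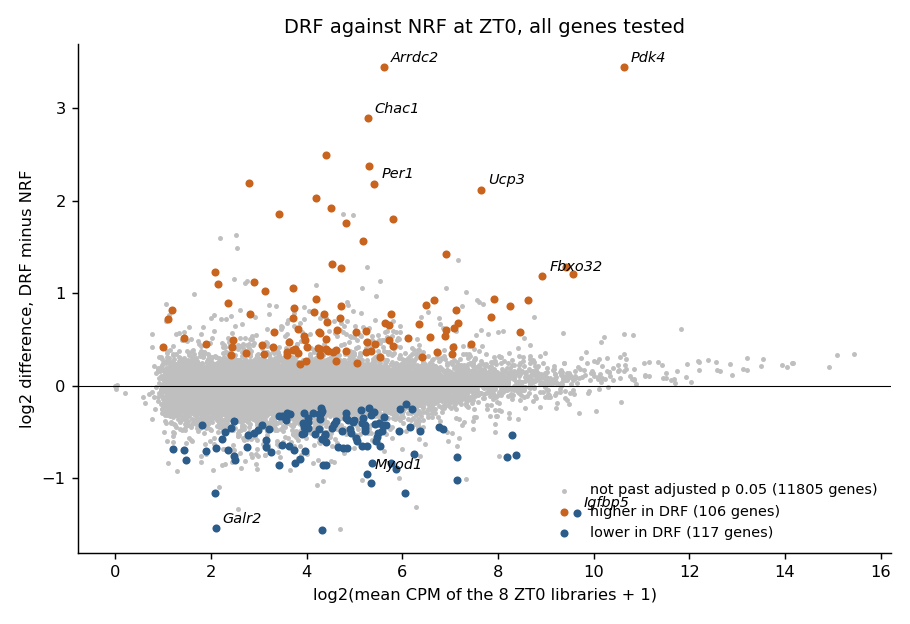
Log2 difference (DRF minus NRF) against log2 of the mean CPM + 1 over the 8 ZT0 libraries, 1 point per gene tested. The 106 higher genes (orange) reach 3.45 log2 units and 7 of the 117 lower genes (blue) lie at -1 log2 unit or below.

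Several genes that direct fuel toward fatty acids rose, as counted by list after their values. Pdk4 (gene 27273, chr6:5483351-5496278), a kinase that switches off pyruvate dehydrogenase and thereby saves glucose, stood at 4694, 2483, 3076 and 1234 CPM in the DRF libraries and 661, 165, 170.2 and 166 CPM in the NRF libraries. Every DRF library lay above every NRF library, and NRF replicate 1 lay well above the other 3 NRF libraries. The fitted difference was 10.9-fold (log2 difference 3.44 ± 0.76 (SE), adjusted p = 0.00774). Ucp3 (gene 22229, chr7:100472991-100486432), a mitochondrial carrier of skeletal muscle that rises with fatty acid supply, stood at 467, 267, 365 and 182 CPM in the DRF libraries and 159, 46.4, 61.4 and 48.2 CPM in the NRF libraries, a 4.36-fold difference (log2 difference 2.12 ± 0.38 (SE), adjusted p = 0.000992). The groups did not overlap, and NRF replicate 1 was again the highest of its group. The call ended without DRF replicate 1 for Pdk4 (adjusted p = 0.0549). In other fits calls ended with the red blood cell score as a covariate for Pdk4 (0.0535), on the log2 scale of the deposited values for Pdk4 (0.061) (adjusted p in each case).

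Angptl4 (gene 57875, chr17:33774900-33781575), a secreted inhibitor of lipoprotein lipase, stood at 60.4, 37.03, 29.3 and 8.83 CPM in the DRF libraries and 18.7, 2.597, 1.899 and 2.32 CPM in the NRF libraries. Here DRF replicate 4 fell below NRF replicate 1, so the groups overlapped, and the difference was 5.65-fold (log2 difference 2.50 ± 0.56 (SE), adjusted p = 0.0097). Acot2, a mitochondrial acyl-CoA thioesterase, was 5.18-fold higher (65.7 ± 38.8 CPM in DRF and 10.9 ± 4.86 CPM in NRF, mean ± SD, n = 4, here and below; adjusted p = 0.00311), and its cytosolic relative Acot1 4.56-fold (adjusted p = 0.0125). These near-identical neighbours had decimal counts, which come from reads shared between genes, so each value is uncertain. Mlycd, which removes the malonyl-CoA that blocks fatty acid entry into mitochondria, was 1.897-fold higher (131 ± 24.97 CPM in DRF and 69.2 ± 17.7 CPM in NRF; adjusted p = 0.0105). Cpt1a, a form of the carnitine palmitoyltransferase that performs that entry, was 1.75-fold higher (adjusted p = 0.0385), with overlapping groups. Another form, Cpt1b, had a log2 difference of 0.32 and missed the threshold (adjusted p = 0.518). Calls ended without DRF replicate 1 for Angptl4 (adjusted p = 0.0802). For Acot1 it ended without any 1 of replicates DRF 1 or NRF 2 (adjusted p 0.0582 to 0.0885), and for Mlycd without DRF 1 or NRF 4 (0.0576 to 0.0763), and for Cpt1a without DRF 1, 2 or 3 or NRF 2, 3 or 4 (0.0995 to 0.145). Other calls ended with the red blood cell score as a covariate for Acot1 (0.116), Mlycd (0.0947) and Cpt1a (0.127), with recovered-total scaling for Cpt1a (0.0851), on the log2 scale of the deposited values for Acot1 (0.0572), Angptl4 (0.119) and Cpt1a (0.0759), with no filter on low genes for Cpt1a (0.0569) (adjusted p in each case).

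Of the 16 PPAR fasting targets tested, these 7 rose and none fell (limma), with a list median of 0.96 log2 units beside -0.0048 over all genes. Of all genes tested, 0.881% were called higher and 0.973% lower. Members that missed the threshold included Plin5, a lipid droplet coat protein (log2 difference 1.85, adjusted p = 0.0822) and Slc25a34 (1.85, 0.145). In the wider list of fatty acid uptake and oxidation, 27 of 28 members had a difference above 0, beside 5873 of all 12028 genes tested. The median of that list was 0.28, and only Acot2 and Mlycd passed. Under scaling by the recovered total 22 of the 28 were above 0. Among 15 lipid droplet genes Plin4, a droplet coat protein, passed (521 ± 146 CPM in DRF and 266 ± 21.1 CPM in NRF; 1.897-fold higher, adjusted p = 0.00417), while Plin2 had a difference of -0.01 (adjusted p = 0.975).

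On the glucose side, calls are given beside the 0.881% of all genes tested that were called higher. In the pyruvate dehydrogenase and TCA cycle list, 2 of 32 members rose, Pdk4 and Pdp2. Pdp2, the phosphatase that reactivates the complex PDK4 inactivates, stood at 16.8 ± 5.11 CPM in DRF and 7.31 ± 1.07 CPM in NRF (adjusted p = 0.019). Pfkfb1, an enzyme that sets the level of the glycolytic activator fructose 2,6-bisphosphate, was the 1 of 26 glucose uptake and glycolysis genes to pass (67.5 ± 10.6 CPM in DRF and 38.6 ± 4.63 CPM in NRF; adjusted p = 0.00451). None of 18 glycogen genes passed (limma), beside 1.85% of all genes tested. None did so at an unadjusted p under 0.05, beside 13% of all genes. Without DRF replicate 1 the count of PPAR fasting targets was 2. The count was 3 in the fit of the 8 libraries alone, but of the 7 targets named above only Pdk4 passed there. It was also 3 on the log2 scale of the deposited values and 3 with the red blood cell score as a covariate. For Pdp2 the call ended without any 1 of replicates DRF 1, 2 or 3 or NRF 1 or 3 (adjusted p 0.0582 to 0.0834). In other fits calls ended with the red blood cell score as a covariate for Pdp2 (0.145), with recovered-total scaling for Pdp2 (0.0516), on the log2 scale of the deposited values for Pdp2 (0.0519) (adjusted p in each case).

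**Figure D3:**
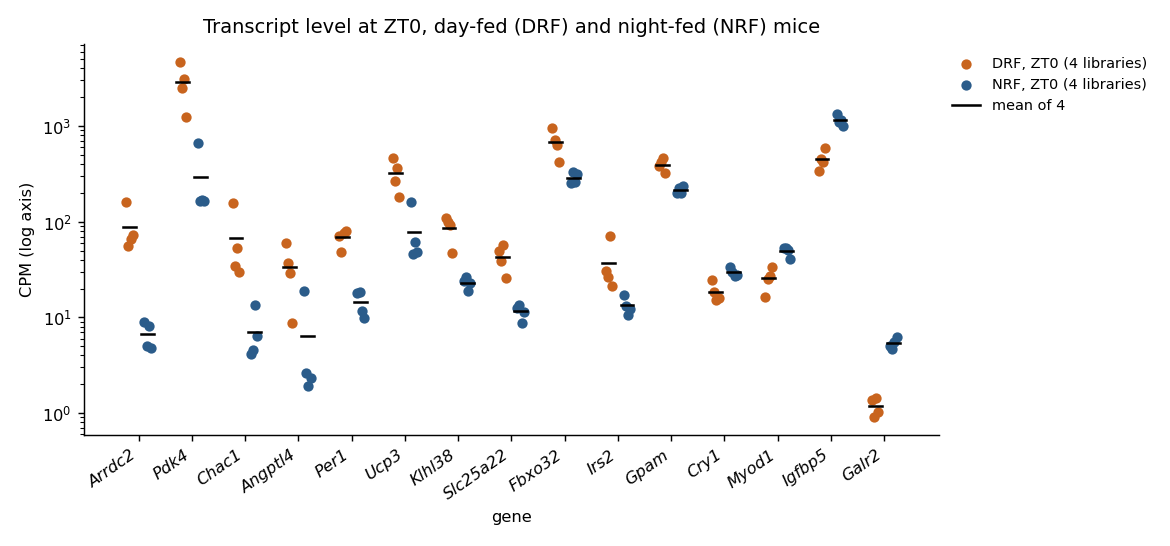
CPM (log axis) of 15 genes in each of the 8 ZT0 libraries, DRF in orange and NRF in blue, with black bars at the mean of 4. The groups do not overlap in 14 of the 15; in Angptl4 the lowest DRF library (8.83 CPM) lies below the highest NRF library (18.7 CPM). Values of different genes are not corrected for length.

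Some genes of protein breakdown and growth restraint rose as well. Fbxo32 (gene 67731, chr15:58175879-58214892), which encodes the muscle ubiquitin ligase atrogin-1, stood at 952, 708, 637 and 422 CPM in the DRF libraries and 254, 328, 257 and 312 CPM in the NRF libraries. All 4 DRF libraries were above all 4 NRF libraries, by 2.28-fold (log2 difference 1.19 ± 0.30 (SE), adjusted p = 0.0237). Klhl38 (gene 268807, chr15:58314573-58324169), of the kelch-like family of ligase adaptors, stood at 109, 99.1, 92.3 and 46.6 CPM in the DRF libraries and 24.03, 26.4, 18.96 and 22.7 CPM in the NRF libraries. The difference was 3.5-fold (log2 difference 1.81 ± 0.32 (SE), adjusted p = 0.000818) and passed in every alternative. Ddit4 (REDD1), an inhibitor of the growth kinase mTORC1, was 3.64-fold higher, with 16.6 ± 16.2 CPM in DRF, where replicate 1 alone reached 40.9 CPM, and 2.84 ± 0.815 CPM in NRF (adjusted p = 0.00434). The F-box gene Fbxo21 was 1.46-fold higher (adjusted p = 0.00692). The call was lost without DRF replicate 1 for Ddit4 (adjusted p = 0.0679). For Fbxo32 it ended without any 1 of replicates DRF 1 or 2 or NRF 1 or 3 (adjusted p 0.0668 to 0.15). Calls also ended with the red blood cell score as a covariate for Fbxo32 (0.0516), with recovered-total scaling for Fbxo21 (0.104), on the log2 scale of the deposited values for Fbxo32 (0.06) (adjusted p in each case).

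In all, 3 of the 24 genes in the FoxO and atrophy list rose and none fell, with a median of 0.33; 14 of the 24 were higher at an unadjusted p under 0.05, beside 679 of 12028 genes tested. Trim63, the partner ligase MuRF, had a difference of 0.58 (adjusted p = 0.159) and Foxo1 itself one of 0.79 (0.0766). Of 25 autophagy genes 3 rose. For both lists the share of all genes tested that were called higher was 0.881%. Ulk1, the kinase that starts autophagosome formation, went from 95.7 ± 10.2 CPM in NRF to 139.8 ± 21.8 CPM in DRF (adjusted p = 0.00417). Atg14, a subunit of the lipid kinase complex that acts next, was 1.26-fold higher (adjusted p = 0.0291), and Depp1, a FoxO target that acts on autophagy, 4.08-fold (adjusted p = 0.036). Depp1 ranged from 5.66 to 89.03 CPM across the DRF libraries. Without DRF replicate 1 the FoxO and atrophy count was 1 and the autophagy count 0, while without DRF replicate 4 the FoxO and atrophy count was 7. The autophagy count was 1 without DRF replicate 3 or NRF replicate 2, 3 or 4. The call ended without DRF replicate 1 for Ulk1 (adjusted p = 0.0513). For Depp1 it ended without any 1 of replicates DRF 1 or 3 or NRF 1, 2, 3 or 4 (adjusted p 0.0507 to 0.352), and for Atg14 without DRF 1, 2 or 3 or NRF 2, 3 or 4 (0.0543 to 0.178). In other fits calls ended with the red blood cell score as a covariate for Depp1 (0.199) and Atg14 (0.0698), with recovered-total scaling for Atg14 (0.221), on the log2 scale of the deposited values for Atg14 (0.0553), with no filter on low genes for Depp1 (0.0535) (adjusted p in each case).

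Insulin and IGF signalling genes changed in both directions, 3 higher and 1 lower of 28, beside 0.881% and 0.973% of all genes tested. Irs2 (gene 384783, chr8:10984681-11008929), an adaptor below the insulin receptor that FoxO factors are known to raise, stood at 30.6, 26.7, 70.5 and 21.1 CPM in the DRF libraries and 17.2, 13.2, 10.6 and 12.4 CPM in the NRF libraries. DRF replicate 3 was the highest, and all DRF values were above all NRF values (2.42-fold; log2 difference 1.28 ± 0.26 (SE), adjusted p = 0.00417). Tbc1d1, a GTPase-activating protein that holds back the glucose transporter GLUT4, was 1.84-fold higher (116 ± 24.2 CPM in DRF and 62.5 ± 13.9 CPM in NRF; adjusted p = 0.00618), and the receptor gene Igf1r 1.302-fold (adjusted p = 0.0443). Igfbp5 (gene 16011, chr1:72858065-72874865), an IGF-binding protein made by muscle fibres as they grow or differentiate, was the member that fell, at 341, 452, 417 and 588 CPM in the DRF libraries and 1341, 1106, 1154 and 997 CPM in the NRF libraries. It was 2.59-fold lower in DRF (log2 difference -1.37 ± 0.26 (SE), adjusted p = 0.00253), with no overlap and with the call held in every alternative. Igf1 had a difference of -0.66 (adjusted p = 0.16). The call of Irs2 ended in the fit of the 8 libraries alone (adjusted p = 0.115), as did that of Tbc1d1 (0.0671); the call of Igf1r held in 13 of 26 alternatives. For Igf1r the call ended without any 1 of replicates DRF 1, 2, 3 or 4 or NRF 1, 2 or 3 (adjusted p 0.0532 to 0.158). Other calls ended with the red blood cell score as a covariate for Igf1r (0.164), with recovered-total scaling for Igf1r (0.267), on the log2 scale of the deposited values for Igf1r (0.101), with no filter on low genes for Igf1r (0.0594) (adjusted p in each case).

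The remaining large rises were spread over several roles. Arrdc2 (gene 70807, chr8:70835129-70839720), an arrestin-domain adaptor, stood at 162, 55.95, 65.5 and 72.1 CPM in the DRF libraries and 8.89, 5.08, 8.197 and 4.78 CPM in the NRF libraries. With Pdk4 it was the largest rise, 10.9-fold (log2 difference 3.45 ± 0.51 (SE), adjusted p = 0.00014). Chac1 (gene 69065, chr2:119351242-119354326), an enzyme that degrades glutathione, stood at 155, 34.6, 53.3 and 29.7 CPM in the DRF libraries and 4.12, 4.57, 13.4 and 6.34 CPM in the NRF libraries, and was 7.45-fold higher (log2 difference 2.90 ± 0.45 (SE), adjusted p = 0.00014). It was the 1 of 24 integrated stress and amino acid response genes to pass, beside 1.85% of all genes tested. Atf4, the factor that drives that response, had a difference of 0.02 and its target Asns one of -0.36. Slc25a22, a mitochondrial glutamate carrier, stood at 49.6, 38.7, 57.4 and 25.8 CPM in the DRF libraries and 12.6, 13.6, 8.83 and 11.3 CPM in the NRF libraries (3.39-fold; log2 difference 1.76 ± 0.27 (SE), adjusted p = 0.00014). Arrdc2, Chac1 and Slc25a22 passed in every alternative.

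Tob2, an antiproliferative protein, stood at 174 ± 25.7 CPM in DRF and 64.04 ± 4.01 CPM in NRF (2.68-fold, adjusted p = 0.00498) and passed in every alternative. Pank1, the kinase of the first step of coenzyme A synthesis, was 2.97-fold higher (53.04 ± 16.4 CPM in DRF and 16.9 ± 4.48 CPM in NRF; adjusted p = 0.0124). Gadd45g, a stress and growth-arrest protein, was 2.49-fold higher (32.9 ± 18.01 CPM in DRF and 11.6 ± 2.199 CPM in NRF; adjusted p = 0.0247), and Tacc2, a centrosomal protein, 2.44-fold (988 ± 407 CPM in DRF and 376 ± 49.4 CPM in NRF; adjusted p = 0.0032). Slc43a1, a transporter of large neutral amino acids, was the 1 of 16 amino acid transporter genes to rise (1.82-fold, adjusted p = 0.023), and the taurine transporter gene Slc6a6 the 1 to fall (1.36-fold lower, adjusted p = 0.0245). Of all genes tested, 0.881% were called higher and 0.973% lower. For Pank1 the call ended without any 1 of replicates DRF 1 or NRF 1 (adjusted p 0.0523 to 0.0681), and for Gadd45g without DRF 1 or 2 or NRF 1 or 4 (0.0551 to 0.212), and for Slc43a1 without DRF 1 or 2 or NRF 2, 3 or 4 (0.0667 to 0.185), and for Slc6a6 without DRF 1 or NRF 1 or 2 (0.0667 to 0.104). In other fits calls ended with the red blood cell score as a covariate for Pank1 (0.119), Gadd45g (0.128) and Slc43a1 (0.0681), on the log2 scale of the deposited values for Pank1 (0.0501) (adjusted p in each case).

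All 23 tested genes known to respond to glucocorticoids had a difference above 0, beside 5873 of all 12028 genes tested. Their median was 0.58 log2 units, and 7 rose by the test, beside 0.881% of all genes tested. Under scaling by the recovered total 22 of the 23 were above 0. Cebpd, a transcription factor, was 3.79-fold higher (36.3 ± 32.03 CPM in DRF and 7.03 ± 1.87 CPM in NRF; adjusted p = 0.00457), and its counts are uncertain. Klf9, a zinc finger repressor induced by the hormone, stood at 176 ± 41.4 CPM in DRF and 108 ± 9.04 CPM in NRF (1.599-fold; adjusted p = 0.00749). Nfkbia, the inhibitor of NF-kB, was 1.48-fold higher (adjusted p = 0.0385) and the sulfotransferase gene Sult1a1, whose counts are uncertain, 1.62-fold (adjusted p = 0.00882). Per1, Ddit4 and Fbxo32 made up the 7. Well known members that missed the threshold were Fkbp5 (log2 difference 0.34, adjusted p = 0.792), Tsc22d3 (0.60, 0.216), Sgk1 (0.55, 0.539) and Zbtb16 (0.04, 0.964). The list shares Fbxo32, Trim63, Ddit4, Klf15, Cdkn1a and Sesn1 with the FoxO and atrophy list and Per1 with the clock list, and the counts of these lists are not separate evidence. Without DRF replicate 1 the count was 1, and in the fit of the 8 libraries alone it was 3. Calls ended without DRF replicate 1 for Cebpd (adjusted p = 0.0681), Klf9 (adjusted p = 0.0834) and Sult1a1 (adjusted p = 0.0549). For Nfkbia it ended without any 1 of replicates DRF 1, 2, 3 or 4 or NRF 2, 3 or 4 (adjusted p 0.0509 to 0.139). Other calls ended with the red blood cell score as a covariate for Nfkbia (0.128), with recovered-total scaling for Nfkbia (0.139) and Sult1a1 (0.076), with no filter on low genes for Nfkbia (0.0544) (adjusted p in each case).

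Of 19 core clock genes, 2 rose and 1 fell, beside 0.881% and 0.973% of all genes tested. Per1 (gene 18626, chr11:69095108-69109965), a repressor of the loop that also answers directly to glucocorticoids and cAMP, stood at 70.8, 47.9, 75.7 and 79.2 CPM in the DRF libraries and 17.99, 18.5, 11.7 and 9.75 CPM in the NRF libraries. The groups were far apart (4.55-fold; log2 difference 2.19 ± 0.34 (SE), adjusted p = 0.00014), and the call held in every alternative. Cry1 (gene 12952, chr10:85131700-85185054), its partner repressor, stood at 24.7, 18.6, 15.1 and 16.1 CPM in the DRF libraries and 33.4, 30.1, 27.2 and 27.6 CPM in the NRF libraries, with no overlap and the opposite direction (1.58-fold lower; log2 difference -0.66 ± 0.13 (SE), adjusted p = 0.00434). Nr1d2, one of the Rev-erb repressors, was 1.44-fold higher (112 ± 22.4 CPM in DRF and 76.9 ± 9.65 CPM in NRF; adjusted p = 0.0353), and its relative Nr1d1, whose counts are uncertain, had a difference of 0.06 (adjusted p = 0.952). For Nr1d2 the call ended without any 1 of replicates DRF 1, 3 or 4 or NRF 1, 2 or 4 (adjusted p 0.0549 to 0.153). Calls also ended with recovered-total scaling for Nr1d2 (0.0977), on the log2 scale of the deposited values for Nr1d2 (0.0719) (adjusted p in each case).

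The activators of the loop had differences below 0 that missed the threshold: Arntl, which encodes BMAL1, -0.71 (adjusted p = 0.0646), Clock -0.53 (0.144) and Npas2 -0.27 (0.506). The other repressors had 0.50 for Per2 (0.595), 0.73 for Per3 (0.161), 0.14 for Cry2 (0.688) and 0.25 for Ciart (0.739). The PAR-domain output genes had 0.46 for Dbp (0.602, uncertain counts), 0.26 for Tef (0.373) and -0.31 for Hlf (0.496), and their competitor Nfil3 had -0.12 (0.905). For Bhlhe40 the difference was 0.20 (0.756), for Bhlhe41 0.37 (0.605) and for Rora 0.11 (0.904). Dbp ranged from 3.45 to 19.7 CPM among the 4 DRF libraries. The call of Cry1 ended in the fit of the 8 libraries alone (adjusted p = 0.079), and Nr1d2 passed in 17 of the 26 alternatives.

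Promoter windows of 4 of these genes are shown because Per1 and Cry1 are the clock repressors that changed, in opposite directions, and Gadd45g and Pank1 are the other large rises whose window holds an E-box or a FoxO motif. Each runs from 250 bases before to 50 bases after a RefSeq start site (GRCm38.p6), 5′ to 3′ on the gene's strand, and capitals mark a motif found on either strand. The Per1 window is chr11:69098699-69098998, plus strand, the Cry1 window chr10:85185005-85185304, minus strand, the Gadd45g window chr13:51846425-51846724, plus strand and the Pank1 window chr19:34879406-34879705, minus strand. For Per1 and Pank1 this is 1 of 2 windows.
Per1: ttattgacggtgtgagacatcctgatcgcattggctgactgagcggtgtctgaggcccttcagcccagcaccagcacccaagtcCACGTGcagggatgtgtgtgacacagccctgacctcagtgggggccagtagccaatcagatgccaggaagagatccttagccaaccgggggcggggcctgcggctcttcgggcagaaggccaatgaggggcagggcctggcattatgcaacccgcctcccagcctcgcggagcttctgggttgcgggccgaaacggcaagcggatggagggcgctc
Cry1: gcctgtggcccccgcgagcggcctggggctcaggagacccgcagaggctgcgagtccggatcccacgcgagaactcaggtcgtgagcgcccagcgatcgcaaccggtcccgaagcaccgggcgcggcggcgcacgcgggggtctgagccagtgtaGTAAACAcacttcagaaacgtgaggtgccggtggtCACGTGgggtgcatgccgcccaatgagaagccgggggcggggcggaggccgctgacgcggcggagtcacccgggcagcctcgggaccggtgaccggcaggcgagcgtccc
Gadd45g: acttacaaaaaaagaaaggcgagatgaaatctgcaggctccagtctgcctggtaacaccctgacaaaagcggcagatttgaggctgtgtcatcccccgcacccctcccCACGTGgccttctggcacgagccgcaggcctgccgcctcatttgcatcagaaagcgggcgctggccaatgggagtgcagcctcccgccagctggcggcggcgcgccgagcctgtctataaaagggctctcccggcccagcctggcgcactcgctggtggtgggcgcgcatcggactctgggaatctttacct
Pank1: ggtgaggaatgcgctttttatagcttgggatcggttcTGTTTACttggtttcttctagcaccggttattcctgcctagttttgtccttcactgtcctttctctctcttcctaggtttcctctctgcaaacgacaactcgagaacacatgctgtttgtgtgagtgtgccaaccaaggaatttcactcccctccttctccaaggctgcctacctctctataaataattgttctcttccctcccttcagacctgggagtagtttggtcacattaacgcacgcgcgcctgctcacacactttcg
The E-box CACGTG, the letters that BMAL1 and CLOCK bind, is in the Per1, Cry1 and Gadd45g windows, and the FoxO motif GTAAACA is in the Cry1 window and, as its reverse complement, in the Pank1 window.

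Motifs were counted in both promoter groups, which are too small to be compared with the shares over all genes. Among the 30 genes with the largest rises and falls, 13 risen and 11 fallen genes matched a RefSeq promoter. An E-box lay in 2 of the 13 and 1 of the 11, against 8.09% of the 27025 genes with at least 1 window, and GTAAACA lay in 1 of the 13 and 0 of the 11, against 4.05%. The D-box TTATGTAA and the cAMP element TGACGTCA were in none of the 24, against 1.11% and 2.03%, and the heat shock core GAANNTTC was in 1 of the 13 and 2 of the 11, against 9.04%. Of the core clock genes with a window, Per1, Cry1, Tef, Bhlhe41 and Ciart held an E-box, Per3 a D-box and Hlf the cAMP element. These are matches of letters in short windows and describe no binding.

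The genes lower in DRF were changed by less and were more varied. Galr2 (gene 14428, chr11:116280106-116283950), a receptor of the peptide galanin, stood at 1.37, 0.911, 1.45 and 1.04 CPM in the DRF libraries and 5.01, 4.69, 5.54 and 6.19 CPM in the NRF libraries (2.902-fold lower; log2 difference -1.54 ± 0.29 (SE), adjusted p = 0.00256); at such low levels the added 1 CPM understates the change. Its groups did not overlap. Myod1 (gene 17927, chr7:46376474-46379092), the transcription factor that commits cells to muscle, stood at 16.3, 25.3, 27.1 and 33.4 CPM in the DRF libraries and 52.5, 52.8, 51.1 and 40.6 CPM in the NRF libraries (1.94-fold lower; log2 difference -0.96 ± 0.20 (SE), adjusted p = 0.00457), again with no overlap. It was the only satellite cell marker of the 4 tested to fall, and Pax7 (-0.29, adjusted p = 0.421) and Myf5 (-0.12, 0.738), which mark the resting stem cells, missed the threshold. The call ended without DRF replicate 1 for Myod1 (adjusted p = 0.064).

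Ppp1r27, a regulator of protein phosphatase, stood at 91.5 ± 5.802 CPM in DRF and 191 ± 52.4 CPM in NRF (2.02-fold lower, adjusted p = 0.00749). Lrrc38, an auxiliary subunit of calcium-activated potassium channels, was 1.78-fold lower (38.8 ± 9.76 CPM in DRF and 68.3 ± 6.23 CPM in NRF; adjusted p = 0.00438), Rgs2, which turns off G protein signalling, 1.79-fold (adjusted p = 0.00562), and the death ligand TRAIL gene Tnfsf10 1.81-fold (adjusted p = 0.00774). Ddit4l, a relative of Ddit4 that also restrains mTORC1, moved the other way from Ddit4, at 214 ± 45.4 CPM in DRF and 364 ± 58.5 CPM in NRF (1.71-fold lower, adjusted p = 0.0325). Mrtfa, an actin-regulated cofactor, was 1.78-fold lower (adjusted p = 0.0314), and Scx, a transcription factor of tendon, 1.61-fold (adjusted p = 0.0218), while the other 5 tendon markers did not pass. The other large falls were Ccdc134, Auts2, Igsf9b, Lingo3 and Plcd4, from -0.86 to -0.77 log2 units (adjusted p 0.0125 to 0.0466). Calls ended without NRF replicate 1 for Ppp1r27 (adjusted p = 0.0523), and without NRF replicate 2 for Rgs2 (adjusted p = 0.0582). For Tnfsf10 it ended without any 1 of replicates DRF 4 or NRF 2 (adjusted p 0.0554 to 0.0944), and for Ccdc134 without DRF 3 or NRF 1 (0.0535 to 0.117), and for Auts2 without DRF 3 or NRF 3 (0.0572 to 0.0581), and for Mrtfa without DRF 1 or 3 or NRF 1, 2, 3 or 4 (0.0523 to 0.21), and for Igsf9b without DRF 1 or NRF 2 or 4 (0.0786 to 0.172), and for Lingo3 without DRF 1 or 3 or NRF 1 (0.0549 to 0.074), and for Ddit4l without DRF 2 or 3 or NRF 1, 2 or 3 (0.0668 to 0.116), and for Plcd4 without DRF 1, 2 or 3 or NRF 1, 2, 3 or 4 (0.067 to 0.155), and for Scx without DRF 1 or 2 or NRF 2, 3 or 4 (0.0554 to 0.103). Other calls ended with the red blood cell score as a covariate for Ccdc134 (0.119), Mrtfa (0.186), Lingo3 (0.0518) and Plcd4 (0.206), on the log2 scale of the deposited values for Mrtfa (0.0522), Igsf9b (0.06), Ddit4l (0.0843) and Plcd4 (0.0839), with no filter on low genes for Plcd4 (0.0659), with a length trend removed for Plcd4 (0.0571) (adjusted p in each case).

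Most lipid synthesis genes had lower values in DRF at ZT0, where 6154 of all 12028 genes tested had a difference below 0. At ZT24, the same clock time in other libraries, the list median was 0.049 for fatty acid and triglyceride synthesis, so that lean did not recur. The cholesterol list had a median of -0.079 there. Calls at ZT0 are given beside the 1.85% of all genes called. Of 22 fatty acid and triglyceride synthesis genes, 19 had a difference below 0 (median -0.39); 2 fell and 1 rose. Fads1, a fatty acid desaturase, stood at 9.21 ± 2.08 CPM in DRF and 15.4 ± 2.79 CPM in NRF (1.62-fold lower, adjusted p = 0.0064), and Scd2, which makes monounsaturated fatty acids, at 25.2 ± 10.4 CPM in DRF and 54.3 ± 24.5 CPM in NRF (2.07-fold lower, adjusted p = 0.0234). Gpam (gene 14732, chr19:55067635-55127319), the mitochondrial acyltransferase of the first step of glycerolipid synthesis, rose, at 380.3, 417, 459 and 324 CPM in the DRF libraries and 200.5, 226, 200.4 and 235 CPM in the NRF libraries (1.82-fold; log2 difference 0.86 ± 0.14 (SE), adjusted p = 0.00014), and passed in every alternative. Srebf1, the factor that carries the insulin signal to these genes, had a difference of -0.65 (adjusted p = 0.0747) and Fasn one of -1.31 (0.354). Of 23 cholesterol genes 20 were below 0 (median -0.15), and 2 fell, among them Srebf2, the regulator of the pathway (19.3 ± 1.801 CPM in DRF and 26.1 ± 3.05 CPM in NRF; adjusted p = 0.0162). The adipocyte list, whose cells also make fat, had 8 of 10 members below 0 with a median of -0.32 and no call. Fads1, Scd2 and Srebf2 all passed with the adipocyte score as a covariate. Whether adipocyte content had a part in these falls was not tested beyond that covariate. Without DRF replicate 1 the counts were 1 of 22 and 0 of 23, without DRF replicate 2 the first was 5, and the cholesterol count was 0 without NRF replicate 2 or 4 and 1 without DRF replicate 3 or NRF replicate 1. The call was lost without DRF replicate 1 for Fads1 (adjusted p = 0.0767). For Srebf2 it ended without any 1 of replicates DRF 1 or NRF 1, 2 or 4 (adjusted p 0.0589 to 0.112), and for Scd2 without DRF 1 or NRF 2 or 4 (0.0828 to 0.18).

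A few chaperones of the endoplasmic reticulum fell in DRF. Of 18 genes of the endoplasmic reticulum stress list, 15 had a difference below 0 (median -0.21), beside 6154 of all 12028 genes tested. By the test 4 of the 18 fell and none rose, beside 0.973% of all genes called lower and 0.881% called higher. The protein disulfide isomerase genes Pdia3 (59.4 ± 8.57 CPM in DRF and 81.1 ± 10.9 CPM in NRF; adjusted p = 0.00618) and Pdia4 (12.9 ± 2.48 CPM in DRF and 17.9 ± 2.34 CPM in NRF; 0.0113) were 1.36-fold and 1.37-fold lower, and the chaperone gene Hyou1 1.31-fold (0.0105). Sdf2l1, a cofactor of that machinery, was 1.34-fold lower (0.0385). Hspa5, the main chaperone of the compartment, had a difference of -0.25 (adjusted p = 0.0628). The list held 0 called genes without DRF replicate 1 and in the fit of the 8 libraries (limma), and 1 without NRF replicate 1. Srsf3, a splicing factor, was the 1 of 14 temperature-responsive RNA-binding genes to pass (36.4 ± 5.82 CPM in DRF and 52.1 ± 4.56 CPM in NRF; 1.43-fold lower, adjusted p = 0.0086), while Cirbp had 0.26 (0.56) and Rbm3 0.18 (0.773). The call ended without DRF replicate 1 for Srsf3 (adjusted p = 0.0586). For Pdia3 it ended without any 1 of replicates DRF 1 or NRF 1 (adjusted p 0.0502 to 0.0681), and for Hyou1 without DRF 1 or NRF 1 (0.0695 to 0.0726), and for Pdia4 without DRF 1 or NRF 1 (0.0677 to 0.133), and for Sdf2l1 without DRF 1, 2 or 3 or NRF 1, 2 or 3 (0.0591 to 0.174). In other fits calls ended with the red blood cell score as a covariate for Sdf2l1 (0.0862), with quantile scaling for Sdf2l1 (0.0734), with array weights for Sdf2l1 (0.0689) (adjusted p in each case).

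Several lists held no called gene (limma) although their members leaned one way. Of all 12028 genes tested, 5873 had a difference above 0 and 6154 below 0. Interferon-inducible genes had a difference below 0 in 32 of 34, with a median of -0.44, and 16 were lower at an unadjusted p under 0.05, beside 883 of 12028 genes tested; Gbp7 stood at 12.1 ± 1.402 CPM in DRF and 23.6 ± 12.5 CPM in NRF (adjusted p = 0.155). Immediate early genes, which answer to fresh stimuli, had 19 of 22 above 0 with a median of 0.28, and 7 were higher at an unadjusted p under 0.05, beside 679 of 12028; in Zfp36, which shortens messages of such genes, the 4 DRF values (18.8 to 21.1 CPM) lay above the 4 NRF values (10.03 to 12.3 CPM; adjusted p = 0.0699). Oxidative phosphorylation genes had 77 of 79 above 0 with a median of only 0.12 and 2 higher at an unadjusted p under 0.05, and 36 of 79 were above 0 when libraries were scaled by the recovered total. Heat shock genes had 18 of 26 below 0 (2 lower at an unadjusted p under 0.05), with Hspa1a at -0.19 and Hspa1b at -0.32, both uncertain. No gene was called among 81 cytosolic and 78 mitochondrial ribosomal protein genes, 32 of ribosome assembly, 37 of the proteasome, 20 of branched-chain amino acid breakdown or 22 PPAR, PGC1 and ERR regulators; at an unadjusted p under 0.05 these held 3, 4, 1, 2, 1 and 1 genes, each a smaller share than the 13% of all genes.

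**Figure D4:**
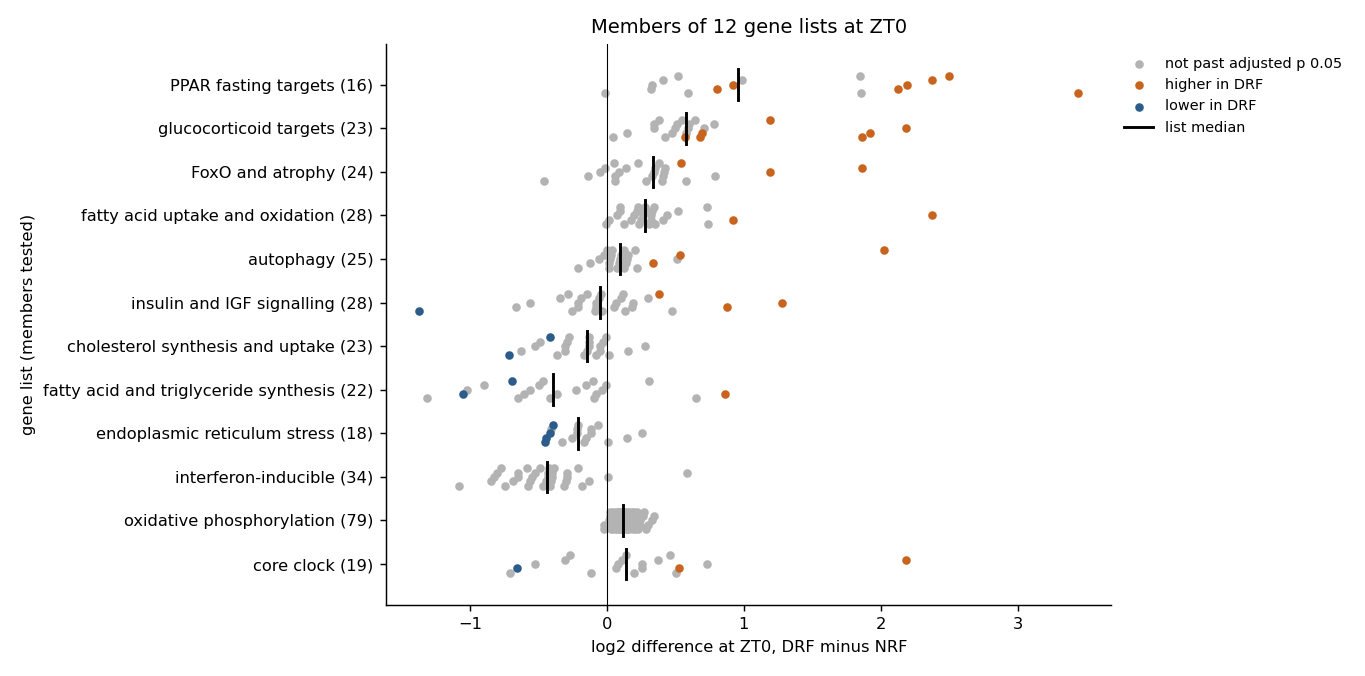
Log2 difference at ZT0 (DRF minus NRF) of each tested member of 12 gene lists, with the number of members tested in parentheses and a black bar at each list's median. Orange points passed the test as higher in DRF (7 of 16 PPAR fasting targets, 7 of 23 glucocorticoid targets), blue points as lower (4 of 18 endoplasmic reticulum stress genes), and grey points did not pass. Of all genes tested, 0.881% were called higher and 0.973% lower.

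The other 2 times at a switch between light and dark place these differences. ZT24 is the same clock time as ZT0, in separately labelled libraries, and no library is shared. There 669 genes (5.56%) differed between DRF and NRF. Of the 106 genes higher at ZT0, 104 were also higher at ZT24 in direction and 79 passed there; of the 117 lower genes, 113 were lower in direction and 45 passed, against 3.5% and 2.06% of all genes called higher and lower at ZT24. Of all 12028 genes, 7763 had the same sign at both times. Arrdc2 had a log2 difference of 3.57 at ZT24, Pdk4 3.02, Angptl4 3.40, Per1 1.81 and Igfbp5 -0.99, all past the threshold there. Cry1 (-0.36, adjusted p = 0.0989), Nr1d2 (0.00, 0.993), Irs2 (0.62, 0.142) and Tbc1d1 (0.19, 0.575) did not pass at ZT24. The test of the difference itself, ZT0 minus ZT24, called 0 genes (limma; 757 genes, 6.29%, at an unadjusted p under 0.05), and 347 when 2 components of the within-group spread were added as covariates.

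ZT12 is lights off, the other end of both feeding windows, when DRF mice had been fed and NRF mice had fasted. Of the 223 genes, 183 had the opposite sign at ZT12, beside 5528 of all 12028 genes. Past the threshold there were 37 of the 183, and 0 passed with the same sign; the background is 425 genes (3.53%) called at ZT12, 2.18% higher and 1.36% lower. Pdk4 had a difference of 3.44 at ZT0 and -3.27 at ZT12 (adjusted p = 0.0136), with 28.1 ± 6.604 CPM in DRF and 304 ± 172 CPM in NRF at the later time. Ucp3 had -1.62 (0.0141), Gpam -0.80 (0.000893) and Myod1 0.99 (0.00435), each the reverse of ZT0. Arrdc2 (-0.65, 0.468), Chac1 (-0.71, 0.356), Per1 (-0.69, 0.223) and Fbxo32 (-0.70, 0.16) had opposite differences that did not pass. The difference at ZT0 minus that at ZT12 was called for 160 of the 223 genes, beside 3.97% of all genes tested (1.92% above 0 and 2.05% below 0). The 223 were chosen by the ZT0 difference, which is a term of that contrast, so nothing is read from this share.

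**Figure D5:**
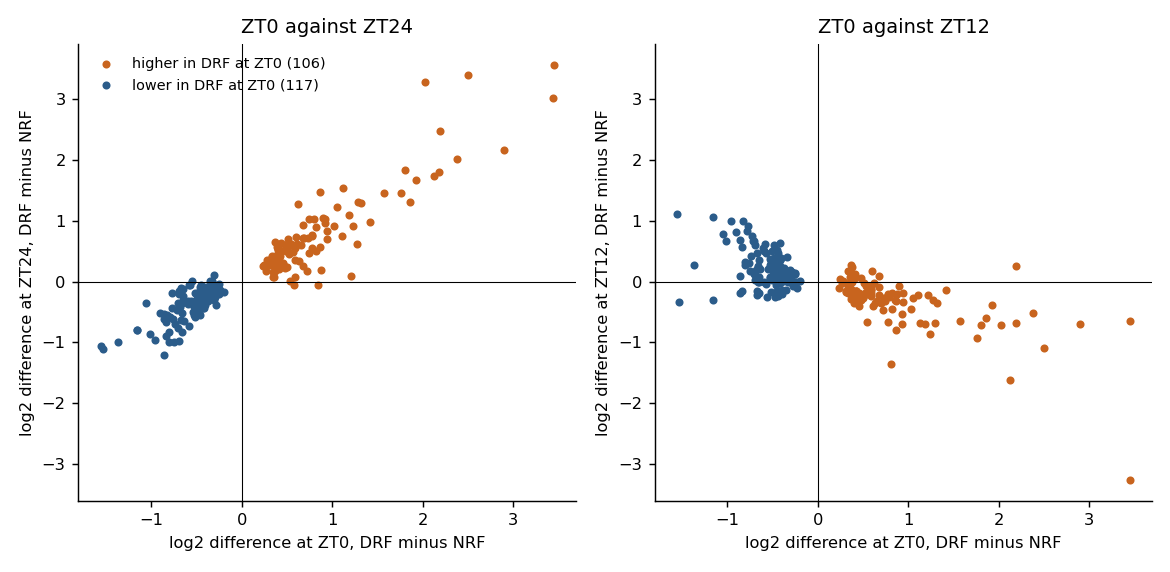
Log2 difference (DRF minus NRF) of the 223 genes called at ZT0, with ZT0 on the x axis and ZT24 (left) or ZT12 (right) on the y axis, orange for the 106 higher and blue for the 117 lower genes. At ZT24 217 of the 223 keep their sign, and at ZT12 183 have the opposite one.

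The authors' deposited tables of rhythm tests, which include these ZT0 libraries and so are not independent of them, listed 66 of the 106 higher genes and 46 of the 117 lower genes as rhythmic in DRF at their q-value under 0.05, against 2436 of the 12025 genes found in both tables. In NRF they listed 46 of the higher and 56 of the lower genes, against 1031. By the phases in those tables, 56 of the 66 higher genes rhythmic in DRF peaked between ZT18 and ZT6, and 45 of the 46 rhythmic in NRF peaked between ZT6 and ZT18. Of the lower genes, 44 of the 46 rhythmic in DRF peaked between ZT6 and ZT18, and all 56 rhythmic in NRF between ZT18 and ZT6. Over all genes tested, the rhythmic ones in DRF had 1215 peaks between ZT18 and ZT6 and 1221 between ZT6 and ZT18. In NRF these were 582 and 449. The called genes were chosen by their ZT0 values, which also enter the phases, so these phase counts describe them and are no separate evidence.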

How the data were processed

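Polyadenylated RNA of gastrocnemius was sequenced on BGISEQ-500 as paired reads of 100 bases, per the labels' protocols. The submitters' processing notes name HISAT2, Bowtie2, RSEM, mm10 and GRCm38.p6, without roles or versions. The deposited values are headed TPM but are a score, a logarithm of scaled counts divided by gene length, so the linear unit the design assumed was not used directly and the test was run on counts recovered from that score. Of 19072 genes, 17443 were recovered and 1629 had fewer than 4 values above 0. In the 10634 tested genes classed as having whole counts, 99.9% of values above 0 were whole within 0.02 reads. That class was set by at least 90% of a gene's values meeting the same limit, so the share is no separate check. The other 1394 genes tested had decimal counts and are named as uncertain. CPM is per 1000000 of the library size implied by the score, and folds come from log2(CPM + 1), so that low genes change by more than printed. Of the deposited IDs, 18955 matched a symbol in the RefSeq tables of GRCm38.p6.

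Genes with a mean of at least 1 CPM over 56 libraries (12028) were fitted with limma 3.58.1 (lmFit, eBayes with trend, R 4.3.3) over 14 groups with 42 residual degrees of freedom. P-values were adjusted by the Benjamini-Hochberg method over all genes tested, with a threshold of 0.05. On simulated data of 12028 genes, 56, 90, 94 and 100% of genes changed by 0.5, 1, 1.5 and 2 log2 units were recovered. There were 6 false calls among the genes left unchanged. The simulated libraries varied independently, with 1 spread per gene in all groups and no deviating library. The run therefore does not give the error rate of the calls reported here. No pair of libraries was identical. The authors' deposited rhythm tables give p-values, q-values and peak phases whose column names are those of MetaCycle, per the file headers.

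Named genes were the 15 largest rises and 15 largest falls without overlap between groups, up to 4 called members per list and direction, every core clock gene and defining markers; other genes are given as comparison values. Some genes that this rule covers are not reported here. The members and the 27 pathway and 15 marker lists were chosen with earlier results of these data known. The 26 alternatives covered scaling, filter, pseudocount, variance model, covariates, the replicate block and each library left out; the slow fibre and red blood cell covariates were chosen after seeing the data.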

Additional observations from a re-analysis of the deposited data

Results flagged for a closer look

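In 84 groups of 4 libraries the highest or lowest value was checked with Dixon's test, which divides the gap to the nearest neighbour by the whole range, and 5 groups passed its 95% critical value; chance passes about 1 in 20 groups. Pdk4 in NRF had 661 CPM in replicate 1 and 165 to 170 CPM in the other 3 libraries (gap ratio 0.9776 on the log2 scale). Myod1 in NRF had 40.6 CPM in replicate 4 and 51.1 to 52.8 CPM in the others (0.8761). The slow fibre score, the mean of its markers on the log2 scale with each gene centred on its mean over all libraries, was 1.58 in DRF replicate 3 and 0.467 to 0.577 in the other DRF libraries (0.9016). The Schwann cell score, of the cells that wrap nerves, was 0.888 in DRF replicate 2 and -0.548 to -0.369 in the others (0.8759), and 1.36 in NRF replicate 4 and -0.585 to -0.254 in the others (0.8294).

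For 25 of the genes with the largest changes at ZT0, the log2 difference between DRF and NRF at ZT0 minus that at ZT12 passed limma's test of that contrast, with adjusted p from 4.89e-06 to 0.0497. These genes were chosen for their ZT0 difference, which is a term of that contrast, so the values describe them and are no independent test. Among genes higher in DRF at ZT0 these values were Arrdc2 4.10, Pdk4 6.71, Chac1 3.60, Acot2 2.89, Per1 2.87, Ucp3 3.74, Depp1 2.73, Cebpd 2.31, Ddit4 2.46, Klhl38 2.52, Slc25a22 2.69, Pank1 2.23, Tob2 1.57 and Gadd45g 1.66. Among genes lower in DRF at ZT0 they were Igfbp5 -1.65, Ppp1r27 -1.68, Myod1 -1.95, Ccdc134 -0.95, Auts2 -1.54, Mrtfa -1.41, Lrrc38 -1.82, Igsf9b -1.13, Lingo3 -1.62, Ddit4l -1.69 and Plcd4 -1.07.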

How the results depend on the processing

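The count of 223 genes at ZT0 was 49 in the fit of the 8 libraries alone, 531 with recovered-total scaling (49 higher, 482 lower), 1070 with array weights, 848 with 2 within-group components and 428 with the slow fibre score, and ranged from 65 to 243 when 1 library was left out, lowest without DRF replicate 1. In each of the other alternatives it was within 1.5 times of 223. Removing a length trend gave 55.4% higher among the calls, against 47.5% in the fit reported and 9.23% under recovered-total scaling, while the fit of the 8 libraries gave 67.3%. The ZT0 minus ZT24 count of 0 was 347 with 2 within-group components. The ZT0 minus ZT12 count of 477 was 1105 with array weights and 1531 with 2 within-group components. Of 6834 alternative values over 264 genes from the naming rule, the lists and the text, 508 lost the call, 90 gained it and 0 reversed; 16 of the 117 called genes passed in all. Same-numbered DRF and NRF libraries showed no shared deviation (correlations -0.314 to 0.122), but so few pairs cannot settle whether the numbers pair them. The replicate block gave 213 genes at ZT0, 0 for ZT0 minus ZT24 and 472 for ZT0 minus ZT12. Where a call changed, the cause was not tested.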

Other observations

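The following genes lie outside the lists and the naming rule and were chosen after their values were seen. Lower in DRF were Smad3, a transducer of transforming growth factor signals (log2 difference -0.47, adjusted p = 0.0385), Acvr1, a receptor of that family (-0.52, 0.0115), Pmepa1, a feedback inhibitor (-0.56, 0.0203), Has3, a hyaluronan synthase (-0.66, 0.0113), and P4ha1, a collagen hydroxylase (-0.49, 0.00562), by limma with Benjamini-Hochberg adjustment. These are single genes, and the 7 fibroblast markers held no call. Edn1, which encodes endothelin, had -0.67 (0.0425) and Thbd, which encodes thrombomodulin, -0.65 (0.0336), while the 9 endothelial markers had a median of -0.16 and no call, with 1 higher and 1 lower at an unadjusted p under 0.05. Among genes higher in DRF were Bcl2l11, which encodes the death-promoting protein BIM (0.73, 0.0081), the cyclin Ccng2 (0.40, 0.0317) and the ubiquitin ligase Cblb (0.61, 0.00774). The call was lost without DRF replicate 1 for Bcl2l11 (adjusted p = 0.0681) and Cblb (adjusted p = 0.0811). For Smad3 it ended without any 1 of replicates DRF 1, 2 or 3 or NRF 2 or 3 (adjusted p 0.0802 to 0.13), and for Acvr1 without DRF 1 or NRF 2 (0.064 to 0.0882), and for Pmepa1 without DRF 1 or 4 or NRF 1 (0.0674 to 0.103), and for Has3 without DRF 1 or NRF 1 (0.0502 to 0.09), and for Edn1 without DRF 1, 2 or 4 or NRF 1, 2, 3 or 4 (0.0681 to 0.203), and for Thbd without DRF 1, 2 or 4 or NRF 1, 2 or 3 (0.0633 to 0.158), and for Ccng2 without DRF 1 or NRF 1, 2 or 4 (0.0673 to 0.239). Calls also ended with the red blood cell score as a covariate for Smad3 (0.169) and Ccng2 (0.122), with recovered-total scaling for Ccng2 (0.159), on the log2 scale of the deposited values for Smad3 (0.0754) and Edn1 (0.0527), with no filter on low genes for Smad3 (0.0532) and Edn1 (0.0594), with a length trend removed for Smad3 (0.0527), with the adipocyte score as a covariate for Edn1 (0.0546) (adjusted p in each case). In the fit of the 8 libraries alone Smad3, Acvr1, Pmepa1, Has3, Edn1, Thbd, Bcl2l11, Ccng2 and Cblb did not pass (adjusted p 0.064 to 0.183).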
